A study of Mus musculus with 12 samples.

Results

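The mitochondrial respiratory chain genes on the array were taken as all genes whose symbol starts with Nduf, Sdh followed by a to d, Uqcr, Cox4i, Cox5, Cox6, Cox7, Cox8 or Atp5. Only probe sets with 1 symbol in the array's probe-to-gene table were used, and for each gene the probe set with the highest mean over the 12 arrays. This gave 73 genes, from 100 probe sets, among 8251 genes with such a probe set. Of the 73, 68 passed a filter on low signals and were tested. The names also take in 4 assembly factors (Ndufaf1, Ndufaf4, Sdhaf1 and Sdhaf2), which build complexes without being part of them. Another 10 probe sets were left out because they had several symbols, at least 1 of which fits these names.

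RNA of the 2C5/7 line, mouse embryonic fibroblasts without functional MyoD or Myf5 genes, was measured on 12 MG_U74Av2 oligonucleotide arrays. The cells of the 4 groups had been infected with a retrovirus that codes for MyoD, Myf5 or myogenin beside the fluorescent protein hrGFP, or for hrGFP only, with 3 arrays each. The viral LTR promoter drove each factor, with hrGFP placed behind an IRES in the viral RNA, and both endogenous genes were lacking in all groups, the hrGFP cells included. Adherent cells were grown in DMEM with 10% fetal calf serum and penicillin/streptomycin, and were sorted by FACS for hrGFP, not cloned, to an estimated purity of 75 to 85%. The labels name myogenin and hrGFP as the controls, and the stated purpose was to see which genes MyoD or Myf5 changes where neither endogenous gene can answer. Titles number the arrays 3, 4 and 5 for MyoD, Myf5 and hrGFP, and 2, 3 and 6 for myogenin. Nothing in the labels says that these are separate cultures, so the p-values rest on a spread between samples that may be technical in part.

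The respiratory chain of the inner mitochondrial membrane takes electrons from NADH at complex I and from succinate at complex II. They pass through complex III and cytochrome c to complex IV, where oxygen is reduced, and complex V, the ATP synthase, uses the proton gradient built on the way. The genes described here lie in the nucleus, and other subunits are coded by mitochondrial DNA. Complex IV has subunits with a form found in many tissues and a form typical of heart and skeletal muscle: Cox6a1 and Cox6a2, Cox7a2 and Cox7a1, Cox8a and Cox8b. MyoD, Myf5 and myogenin are transcription factors of the skeletal muscle lineage that bind the E-box, CANNTG, and muscle that matures is known to gain mitochondria.

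The promoters of the muscle isoforms Cox7a1 and Cox8b and of their counterparts are shown because the isoforms are set against each other in the comparisons that follow. The sequences, 300 bases around the start of the gene, are from RefSeq on GRCm38.p6, with each E-box in capitals. Cox7a1 lies at chr7:30183921-30184220 on the + strand, Cox7a2 at chr9:79759804-79760103, Cox8b at chr7:140900397-140900696 and Cox8a at chr19:7217567-7217866, the last 3 on the - strand. No promoter of Cox6a2 is printed, nor is that of its counterpart Cox6a1, which held no E-box.
Cox7a1 (muscle): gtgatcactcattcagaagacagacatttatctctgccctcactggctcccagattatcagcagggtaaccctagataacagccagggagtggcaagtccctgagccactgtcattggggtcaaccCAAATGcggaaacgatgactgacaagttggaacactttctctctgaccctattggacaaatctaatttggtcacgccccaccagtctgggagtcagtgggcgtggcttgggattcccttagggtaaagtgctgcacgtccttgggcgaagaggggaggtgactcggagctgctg
Cox7a2 (counterpart): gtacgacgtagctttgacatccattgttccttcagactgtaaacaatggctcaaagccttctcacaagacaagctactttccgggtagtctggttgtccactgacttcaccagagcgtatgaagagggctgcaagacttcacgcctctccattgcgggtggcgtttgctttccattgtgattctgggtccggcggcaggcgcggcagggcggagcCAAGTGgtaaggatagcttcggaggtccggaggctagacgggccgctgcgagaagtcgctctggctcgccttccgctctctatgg
Cox8b (muscle): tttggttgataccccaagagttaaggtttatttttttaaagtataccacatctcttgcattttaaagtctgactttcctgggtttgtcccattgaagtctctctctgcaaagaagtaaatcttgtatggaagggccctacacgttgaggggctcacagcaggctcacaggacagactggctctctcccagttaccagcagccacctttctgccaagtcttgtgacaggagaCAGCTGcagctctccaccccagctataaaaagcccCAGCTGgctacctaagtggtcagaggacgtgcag
Cox8a (counterpart): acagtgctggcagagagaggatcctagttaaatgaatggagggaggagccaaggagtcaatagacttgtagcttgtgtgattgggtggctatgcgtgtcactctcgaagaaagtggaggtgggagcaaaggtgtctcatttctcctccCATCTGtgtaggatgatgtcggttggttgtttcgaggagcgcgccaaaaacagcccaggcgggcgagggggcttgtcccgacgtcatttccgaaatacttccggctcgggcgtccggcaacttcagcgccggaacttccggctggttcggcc
Cox8b had an E-box with a GC centre, CAGCTG in 2 places, at positions -19 and 16 from the start of the gene. Cox7a1, Cox7a2 and Cox8a had 1 E-box each, at -124, -35 and -102, none of them with the GC centre. Over the 60 genes of the set with a promoter in the table, 42 held an E-box (70.0%), against 72.1% of all 27025 promoters. CAGCTG, which is among the E-boxes and its own reverse complement, stood in 4 of the 60 (Cox8b, Ndufa8, Ndufb10 and Ndufv2), or 6.67%, against 16.1% of all. The consensus of NRF1, a factor known to control respiratory chain genes, stood in 5 (Atp5g2, Atp5k, Cox6a1, Ndufaf4 and Uqcrc1), or 8.33%, against 0.977% of all. The core CCGGAAG, bound by ETS factors such as the NRF2 subunit Gabpa, was found in 17 (28.3%) against 9.12%. The MEF2 consensus was found in 0 of the 60 and in 3.26% of all promoters. All motifs were searched on both strands, and a match is a run of letters, not a measured site.

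Values are quantile-normalized log2(signal + 6.3), and a difference is between group means on this scale, ± the standard error from limma with 3 arrays against 3. The pseudocount of 6.3 understates differences where signals are low. P-values are adjusted over all 8485 probe sets tested, and a gene was called at an adjusted p under 0.05. The filter asked for a signal above 15.0, or 4.41 on the log2 scale, on at least 3 arrays. Levels of different genes are not comparable, since each probe set binds with its own strength. In extracts of whole cell populations, less RNA per cell and fewer cells making it cannot be told apart.

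Median signals of the 12 arrays lay between 16.2 and 35.9, and precision is limited by how few arrays there are. In the muscle contraction list, 9 of 11 genes rose with MyoD against hrGFP (Acta1, Myog, Tnni1, Tnnc1, Myl1, Chrnb1, Tnnt3, Myh3 and Chrna1). Over all probe sets 0.412% were called in this comparison. Of the 11 genes, 10 had a difference above 0, and Ckm, also on this list, read lower with MyoD. The call was lost for Tnni1 under 5 of 24 alternatives (adjusted p up to 0.17), for Myog under 4 of 24 (up to 0.249) and for Chrna1 under 1 of 19 (0.105). With Myf5 and with myogenin, only Chrnb1 of this list was called, where 0.0118% and 0.130% of all probe sets were. Summed over the list, signals were 2637 to 3911 in MyoD cells, 222 to 648 in Myf5 cells, 479 to 1319 in myogenin cells and 102 to 188 in hrGFP cells. The list holds Myog, which the virus codes for in myogenin cells, and whether viral RNA adds to their sum was not tested. Of 12 fibroblast markers, 9 to 11 were above the filter signal on every array of a group, depending on the group. On MyoD 5 and hrGFP 5 the 3' probe set of actin read 25.7 and 37.6 times the 5' one, and that of Gapdh 32.4 and 33.0 times. On the other 10 arrays these ratios were 0.968 to 1.11 for actin and 0.786 to 1.03 for Gapdh. By chip lot and hybridization day there were 3 array batches. The first held the arrays numbered 3 and 4 of the MyoD, Myf5 and hrGFP groups, the next those numbered 5, and the last all myogenin arrays. Batch and group cannot be told apart for myogenin. The information files of Myf5 5 and hrGFP 5 carry the same code in their description, while the other MyoD, Myf5 and hrGFP arrays carry a code each, and whether this is a slip could not be settled.

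Most respiratory chain genes read slightly higher with MyoD than with hrGFP, and no single gene was called. The difference was above 0 for 61 of 68 genes, where 48.5% of all probe sets were above 0. The median over the 68 was 0.28, against -0.01 over all probe sets, and the range was -0.71 to 1.24. None of the 68 was called, and over all probe sets the share called was 0.412%. Unadjusted p was under 0.05 for 3 genes that were higher (2.18% of all probe sets) and 1 that was lower (1.37% of all), and the lowest adjusted p was 0.5. All 3 MyoD arrays read above all 3 hrGFP arrays for 6 genes (2.88% of all probe sets): Cox6a2, Ndufa13, Sdhd, Ndufa8, Atp5mpl and Ndufb6. They read below them for 2 (2.40% of all probe sets), Cox4i1 and Ndufa10, a share near that of all probe sets.

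By array, the median deviation of the 68 genes from the hrGFP mean was 0.12, 0.26 and 0.52 on MyoD 3, 4 and 5. It was -0.14, -0.10 and 0.26 on hrGFP 3, 4 and 5. Replicate 5 was the highest array of both groups, and hrGFP 5 lay above MyoD 3 and level with MyoD 4. MyoD 5 was the highest of the MyoD arrays for 43 of the 68 genes (46.1% of all probe sets), and hrGFP 5 the highest of its group for 44 (45.5% of all). Without MyoD 5 the median difference was 0.18 and without hrGFP 5 it was 0.38. Without both it was 0.30, with 54 of 67 genes above 0, and within the array batch of replicates 3 and 4 it was 0.30, with 55 of 68 above 0.

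Arrays of MyoD and hrGFP with the same number deviated together from their group means, with correlations over all probe sets of 0.50, 0.39 and 0.83 for numbers 3, 4 and 5. Unlike numbers gave 0.48 for MyoD 3 with hrGFP 4 and 0.37 for MyoD 4 with hrGFP 3. Number 5 with 3 or 4 gave -0.67 to -0.52. Deviations of the 3 arrays of a group sum to 0, so these negative values follow in part from the 0.83. They are thus not separate evidence. The 0.83 sets number 5 apart, and the correlations do not show which arrays of numbers 3 and 4 pair. Set against each other by number, MyoD was above hrGFP by a median over the 68 genes of 0.21, 0.32 and 0.28, where the medians over all probe sets were -0.04, 0.01 and -0.01. The difference was above 0 for 60, 49 and 60 of the 68. For Myf5 against hrGFP the same medians were 0.10, 0.17 and -0.36, so that number 5 went the other way.

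**Figure D1:**
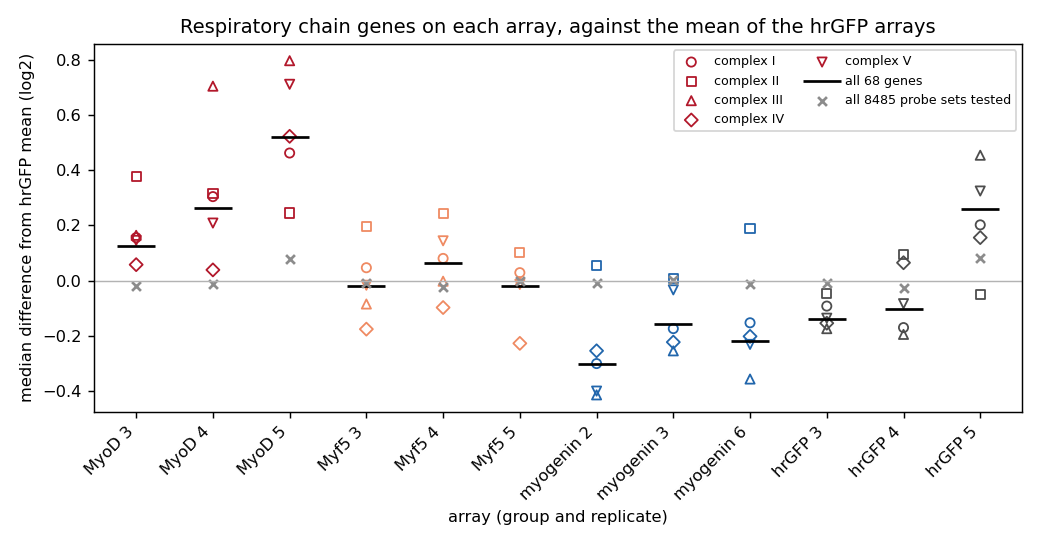
Median difference of the respiratory chain genes from the mean of the 3 hrGFP arrays (log2, vertical axis) on each of the 12 arrays (horizontal axis). Black bars are the median of the 68 tested genes, open symbols the medians of complexes I to V without assembly factors, coloured by group, and crosses the median of all 8485 probe sets. The 3 MyoD arrays lie at 0.12 to 0.52 and the 3 myogenin arrays at -0.30 to -0.16, and hrGFP 5, at 0.26, stands above the other 2 hrGFP arrays.

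Complex I, the NADH dehydrogenase, had 27 tested subunits, and 24 of them read higher with MyoD than with hrGFP, with a median difference of 0.31. The largest were Ndufb9 (0.51), Ndufab1 (0.51, the mitochondrial acyl carrier protein) and Ndufc1 (0.46), all accessory subunits. Among the core subunits, Ndufs3 differed by 0.41, Ndufs1 by 0.32, Ndufv1 by 0.24 and Ndufv2 by 0.18. The subunits with a lower mean were Ndufa10 (-0.34), Ndufv3 (-0.14) and Ndufa7 (-0.12). Ndufa10 read 5.43, 5.66 and 5.52 with MyoD and 5.79, 5.83 and 6.03 with hrGFP. The difference of Ndufa10 was -0.34 ± 0.23 (adjusted p = 1). Ndufa7, which had the highest mean of complex I, read 9.33 to 9.71 with MyoD and 9.36 to 9.81 with hrGFP, and the groups overlapped.

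In complex II, the succinate dehydrogenase of the TCA cycle, all 4 subunits read higher with MyoD. Sdha, the flavoprotein that oxidizes succinate, differed by 0.36, the iron-sulfur subunit Sdhb by 0.23, and the membrane anchors Sdhc and Sdhd by 0.42 and 0.40. Sdhd read 9.10, 8.90 and 9.24 with MyoD and 8.44, 8.78 and 8.82 with hrGFP, without overlap. Its difference was 0.40 ± 0.19 (adjusted p = 1). The assembly factors Sdhaf1 and Sdhaf2 differed by 0.16 and 0.20, and those of complex I, Ndufaf1 and Ndufaf4, by 0.21 and 0.56.

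All 7 genes of complex III, the cytochrome c reductase, had a higher mean with MyoD, with a median difference of 0.33. Uqcrh, the hinge protein that holds cytochrome c1 and cytochrome c together, had the largest. It read 9.55, 10.31 and 10.74 with MyoD and 9.11, 9.26 and 10.31 with hrGFP. The difference of Uqcrh was 0.64 ± 0.35 (adjusted p = 1), and hrGFP 5 lay above MyoD 3 and level with MyoD 4. Uqcr10 differed by 0.55, Uqcr11 by 0.46, Uqcrb by 0.33 and Uqcrq by 0.32, all small subunits. Uqcrq, the highest mean of the complex, read 9.89 to 10.41 with MyoD and 9.66 to 9.99 with hrGFP. The core proteins Uqcrc1 and Uqcrc2 differed by 0.18 and 0.05.

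In complex IV, the cytochrome c oxidase, 9 of 12 tested genes read higher with MyoD, with a median of 0.15. Beside the muscle isoforms, Cox5b differed by 0.44 ± 0.19. It read 9.54, 9.78 and 9.96 with MyoD and 9.18, 9.23 and 9.57 with hrGFP, so that MyoD 3 lay just below hrGFP 5. Cox4i1, the widely expressed form of the subunit that binds ATP, went the other way, with 5.34, 4.97 and 5.17 with MyoD and 5.58, 5.91 and 6.13 with hrGFP. The difference of Cox4i1 was -0.71 ± 0.25 (adjusted p = 0.955), and a second Cox4i1 probe set with 1 symbol differed by -0.07 ± 0.24. The forms known from testis, Cox6b2 and Cox8c, differed by -0.23 and -0.22, and Cox7a2l, a factor of supercomplexes, by 0.15.

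Complex V, the ATP synthase, had 13 of 14 genes with a higher mean with MyoD and a median of 0.25. The stalk subunit Atp5o differed by 0.64 ± 0.24 and read 9.35, 9.41 and 9.92 with MyoD and 8.59, 8.81 and 9.36 with hrGFP, where MyoD 3 lay just below hrGFP 5. Of the catalytic head, Atp5e differed by 0.44, Atp5c1 by 0.41, Atp5a1 by 0.37 and Atp5d by 0.22. The ring subunits that carry protons, Atp5g1 and Atp5g2, differed by 0.05 and -0.00. Atp5l, a membrane subunit and the highest mean of the complex, read 10.47 to 11.22 with MyoD and 10.15 to 10.98 with hrGFP. The difference of Atp5l was 0.29 ± 0.24, and its groups overlapped. A second Atp5l probe set with 1 symbol went the other way, at -0.35 ± 0.27.

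**Figure D2:**
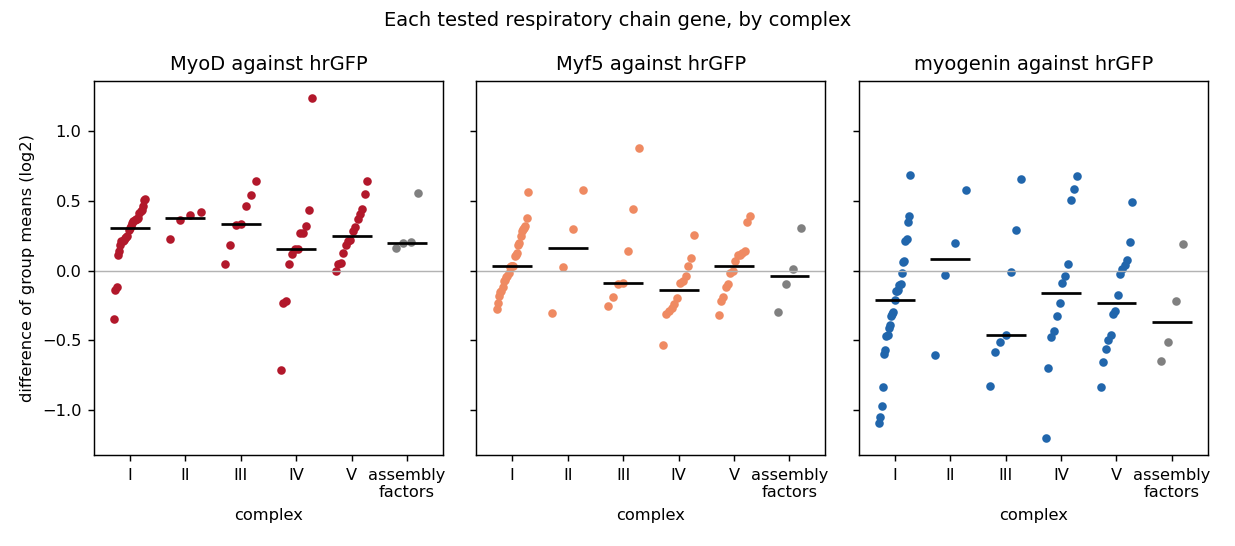
Difference of group means (log2, vertical axis) for each tested gene, by complex (horizontal axis) with the 4 assembly factors apart, for MyoD, Myf5 and myogenin against hrGFP. Each point is 1 gene, ordered by size within a complex, and black bars are medians. With MyoD the medians of the 5 complexes lie between 0.15 and 0.38, and with myogenin those of complexes I, III, IV and V lie between -0.46 and -0.16.

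Among the muscle isoforms, Cox6a2 had the largest difference of the 68 genes with MyoD. It read 5.53, 4.34 and 5.48 with MyoD, 3.58, 3.59 and 3.88 with Myf5, 3.62, 4.23 and 3.52 with myogenin, and 3.95, 4.02 and 3.66 with hrGFP. The 3 MyoD arrays lay above the other 9. The difference from hrGFP was 1.24 ± 0.35 with MyoD (limma, adjusted p = 0.5), which is 2.36-fold on the scale of signal + 6.3. Against Myf5 it was 1.43 ± 0.35 (adjusted p = 0.343) and against myogenin 1.32 ± 0.35 (adjusted p = 0.165). Its deposited signals were 37.8, 11.8 and 38.2 with MyoD and 4.42 to 15.4 on the other 9 arrays, so that Cox6a2 passed the filter on 3 arrays only, 2 of them with MyoD. A gene that passes mainly through the group where it is high is bound to differ.

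Cox7a1 did not pass the filter. It read 3.44, 4.03 and 4.69 with MyoD and 3.13, 3.08 and 3.32 with hrGFP. Its Myf5 arrays read 2.83 to 3.67 and its myogenin arrays 3.02 to 3.60, and 1 of 12 signals, that of MyoD 5 at 18.6, was above the filter. Cox8b was read above the filter on all arrays, with 6.17, 6.44 and 6.57 with MyoD, 5.75, 5.82 and 5.87 with Myf5, 6.18, 5.72 and 6.59 with myogenin and 5.96, 6.39 and 6.01 with hrGFP. The MyoD and hrGFP groups overlapped, and the difference of Cox8b was 0.27 ± 0.25 (adjusted p = 1). A second Cox8b probe set differed by 0.79 ± 0.34 without passing. Against Myf5 the 3 MyoD arrays did not overlap, at 0.58 ± 0.25 (adjusted p = 0.937).

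The counterpart Cox6a1 read 10.51, 10.71 and 11.27 with MyoD and 10.28, 10.62 and 11.12 with hrGFP, a difference of 0.15 ± 0.23. Cox7a2 read 10.16, 10.25 and 10.83 with MyoD and 9.76, 9.86 and 10.66 with hrGFP, a difference of 0.32 ± 0.24. Both groups overlapped, with replicate 5 the highest. Cox8a did not pass the filter, with 3.04, 4.52 and 4.18 with MyoD and 3.00, 4.31 and 3.46 with hrGFP.

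Whether a muscle isoform changed more than its counterpart was tested by the difference of the 2 on each array. Between MyoD and hrGFP, Cox6a2 moved by 1.08 relative to Cox6a1 (exact two-sided permutation test, p = 0.2, adjusted over 9 tests 0.45). The groups overlapped. Cox7a1 moved by 0.56 relative to Cox7a2 (exact p = 0.2) and Cox8b by -0.05 relative to Cox8a (exact p = 1). The second Cox8b probe set, which differed by 0.79 between MyoD and hrGFP, was not set against Cox8a. With Myf5, Cox8b moved by -0.84 relative to Cox8a (exact p = 0.1, adjusted 0.45), and with myogenin Cox7a1 moved by 0.52 relative to Cox7a2 (exact p = 0.1, adjusted 0.45), both without overlap. These moves lay largely in the counterparts. Cox8a had a mean of 4.12 with Myf5 and 3.59 with hrGFP, and Cox8b 5.81 and 6.12. Cox7a2 had a mean of 9.62 with myogenin and 10.09 with hrGFP, and Cox7a1 3.22 and 3.17. The smallest p that 3 arrays against 3 allow is 0.1, so none could pass, and Cox7a1 and Cox8a were near the low end of the signals. The other 4 differences had exact p of 0.7 to 1.

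**Figure D3:**
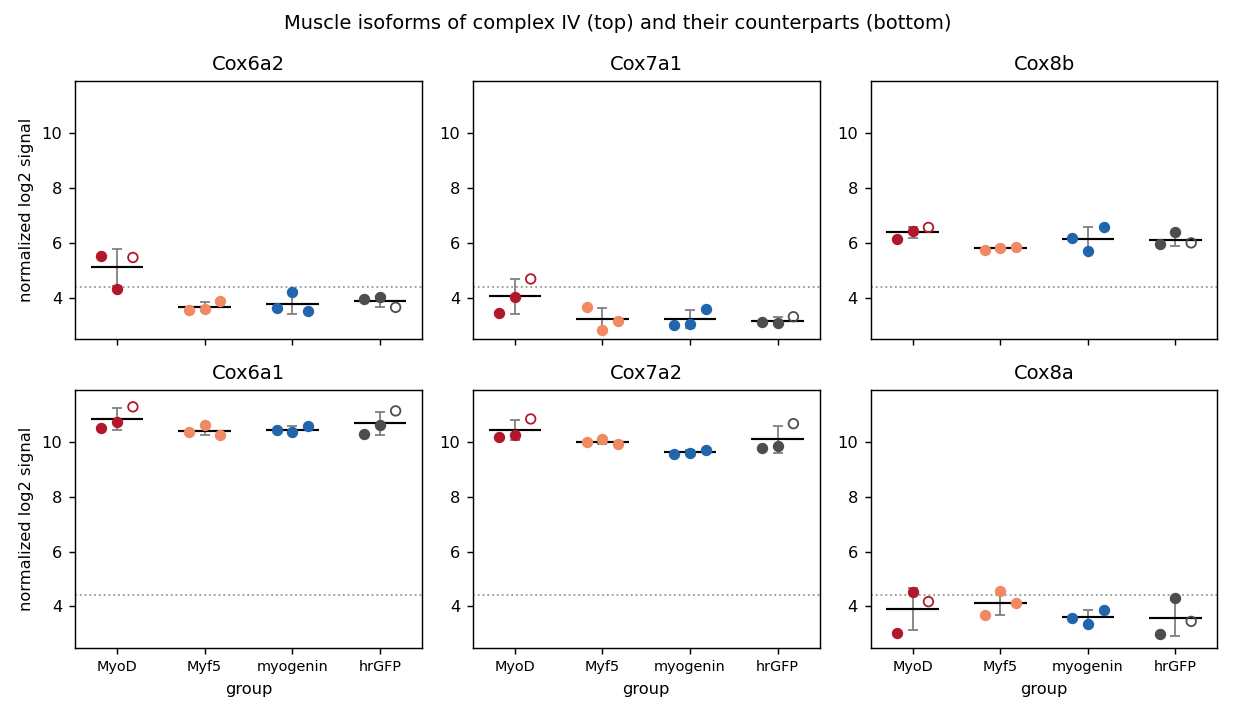
Normalized log2 signal (vertical axes, all alike) of the muscle isoforms Cox6a2, Cox7a1 and Cox8b (top) and their counterparts Cox6a1, Cox7a2 and Cox8a (bottom) in the 4 groups (horizontal axis), 1 point per array, with the mean (black) and SD (grey, n = 3). MyoD 5 and hrGFP 5 are open circles and the dotted line is the filter at 4.41. The 3 MyoD points of Cox6a2 lie at 4.34 to 5.53, above the other 9, while Cox7a1 and Cox8a stay near or below the line; heights of different probe sets are not comparable.

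With Myf5 the respiratory chain genes lay around the hrGFP level. Of 68 genes, 35 had a difference above 0 (45.8% of all probe sets), with a median of 0.01 against -0.03 over all. None was called, where 0.0118% of all probe sets were, and unadjusted p was under 0.05 for 0 of the 68 (2.99% of all probe sets). With the replicate number as a block in the fit the share called over all probe sets was 0.0471%, and still none of the 68 was called. On Myf5 3, 4 and 5 the median deviation from the hrGFP mean was -0.02, 0.06 and -0.02, within the range of the hrGFP arrays. Within the array batch of replicates 3 and 4 the median was 0.15, with 56 of 68 above 0, and without MyoD 5 and hrGFP 5 it was 0.14, with 51 of 67 above 0. Without hrGFP 3 it was -0.08.

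The largest differences with Myf5 were those of Uqcrc1, a core protein of complex III, and Sdhc, a membrane anchor of complex II. Uqcrc1 read 9.15, 9.02 and 9.04 with Myf5 and 8.93, 9.04 and 6.59 with hrGFP. The difference was 0.88 ± 0.66 (adjusted p = 0.973), and without hrGFP 5 it was 0.08. Sdhc read 8.84, 9.07 and 8.46 with Myf5 and 8.71, 8.63 and 7.29 with hrGFP, a difference of 0.58 ± 0.48 (adjusted p = 0.973) and of 0.12 without hrGFP 5. In both genes the low arrays were hrGFP 5 and MyoD 5, which read 6.82 for Uqcrc1 and 7.49 for Sdhc, and the other 10 lay at 8.76 to 9.32 for Uqcrc1 and 8.46 to 9.58 for Sdhc. The lowest differences with Myf5 were Cox4i1 at -0.53 ± 0.25 and Atp5l at -0.32 ± 0.24 (adjusted p = 0.973 for each). Cox4i1 read 5.67, 5.40 and 4.96 with Myf5, overlapping hrGFP, and Atp5l read 10.10, 10.55 and 10.07.

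These arrays stood apart for more genes of the set. MyoD 5 differed by more than 1 on the log2 scale from the mean of MyoD 3 and 4 for 10 of the 68 genes, hrGFP 5 in the same way for 12, and Myf5 5 for 0. Uqcrc1 differed by -2.33 on MyoD 5 and -2.40 on hrGFP 5, with Sdhc, Ndufv1 and Ndufb8 next among those low on both. Ndufb3 differed by 1.40 and 1.30, and Sdha by 1.15 and 1.51. The 3' to 5' ratios of the same 2 arrays were 25.7 or more, and their part in these values was not tested.

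With myogenin the genes mostly read lower than with hrGFP, without a call. The difference was above 0 for 21 of 68 genes (48.9% of all probe sets), with a median of -0.22, against -0.01 over all. None was called, where 0.130% of all probe sets were, the lowest adjusted p was 0.189, and unadjusted p was under 0.05 for 13 genes that were lower (6.02% of all probe sets) and 1 that was higher (5.47% of all). The 3 myogenin arrays lay below all 3 hrGFP arrays for 20 genes, where 9.92% of all probe sets did. The median deviation was -0.30, -0.16 and -0.22 on myogenin 2, 3 and 6, which lay below the 3 hrGFP arrays. Without hrGFP 5 the median difference was -0.13, without myogenin 2 it was -0.12, and without MyoD 5 and hrGFP 5 it was -0.12 with 21 of 67 above 0. Complex III had the lowest median, -0.46, and complexes V, I and IV had -0.23, -0.21 and -0.16, while complex II had 0.08 over its 4 subunits.

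Cox7b, a small subunit of complex IV, had the lowest difference with myogenin. It read 7.44, 7.91 and 7.47 with myogenin, 8.51, 8.55 and 9.36 with hrGFP, 8.52, 8.60 and 8.60 with Myf5 and 8.50, 8.50 and 9.56 with MyoD. The 3 myogenin arrays lay below the other 9. The difference of Cox7b from hrGFP was -1.20 ± 0.31 (adjusted p = 0.189), and it was called with -0.90 (adjusted p = 0.0379 in limma) where MyoD 5 and hrGFP 5 were left out, a setting that called 0.605% of all probe sets. Ndufv3, a small subunit of the NADH-binding part of complex I, read 5.73, 5.89 and 5.99 with myogenin and 6.68, 6.78 and 7.42 with hrGFP. Its difference was -1.09 ± 0.31 (adjusted p = 0.229). Ndufa6 (-1.04), Ndufc1 (-0.97), Atp5e (-0.84), Ndufa3 (-0.83) and Uqcrh (-0.82) followed, all without overlap with hrGFP.

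The highest differences with myogenin were Ndufa1 and Cox6b2, at low signals. Ndufa1, an accessory subunit of complex I, read 5.41, 4.35 and 5.53 with myogenin and 4.96, 5.13 and 3.14 with hrGFP. Its difference was 0.68 ± 0.48 (adjusted p = 0.578), and without hrGFP 5 it was 0.05. Cox6b2 read 4.89, 4.89 and 4.83 with myogenin and 4.00, 4.31 and 4.26 with hrGFP, without overlap, a difference of 0.68 ± 0.36 (adjusted p = 0.487). It was above the filter signal on all 3 myogenin arrays, at 24.5 to 29.8, and on 1 MyoD and 1 Myf5 array, at 15.3 and 17.1. Cox6b2 thus passed the filter mainly through the group where it is high, as Cox6a2 did.

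**Figure D4:**
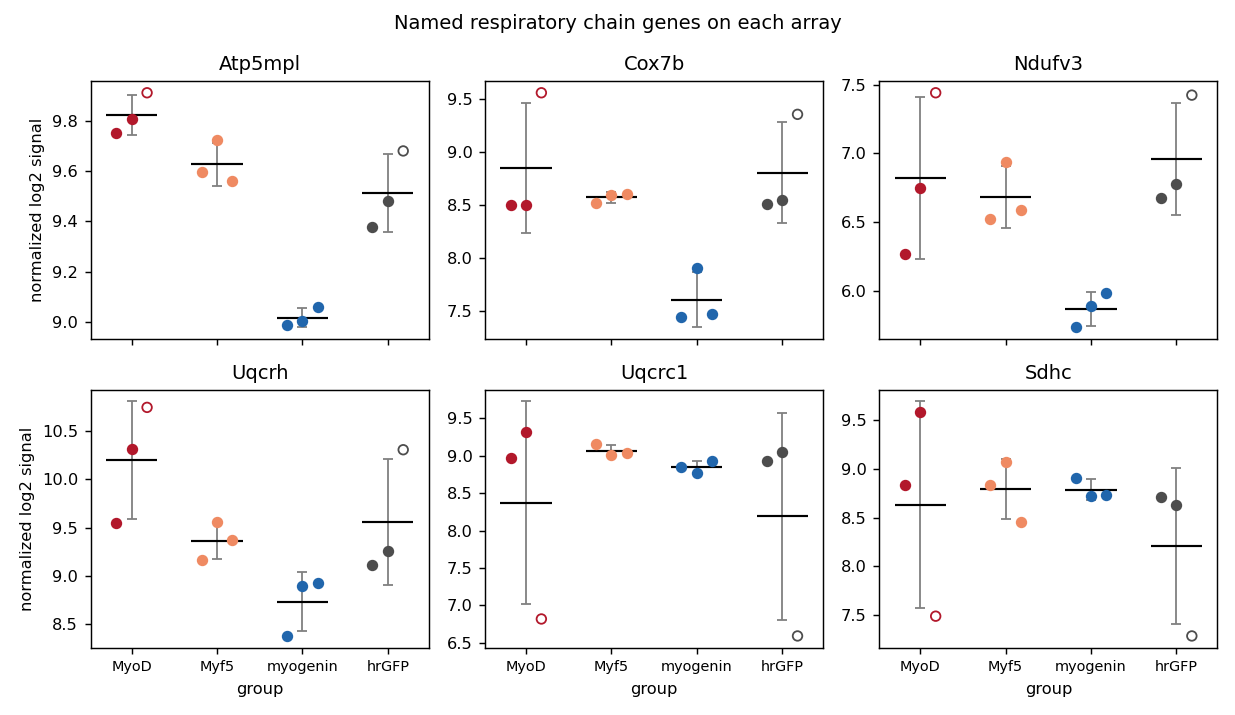
Normalized log2 signal (vertical axes, a scale for each gene) of Atp5mpl, Cox7b, Ndufv3, Uqcrh, Uqcrc1 and Sdhc in the 4 groups (horizontal axis), 1 point per array, with the mean (black) and SD (grey, n = 3). MyoD 5 and hrGFP 5 are open circles. The myogenin arrays are lowest for Atp5mpl, Cox7b, Ndufv3 and Uqcrh, and the open circles stand high for Cox7b and Uqcrh and low for Uqcrc1 and Sdhc.

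Directly compared, MyoD cells read higher than myogenin cells for 56 of 68 genes (50.1% of all probe sets), with a median of 0.53 against 0.00 over all. Here 1 gene was called, Atp5mpl, and the share called over all probe sets was 0.412%. Unadjusted p was under 0.05 for 30 genes that were higher with MyoD (7.55% of all probe sets) and 3 that were lower (6.26% of all). Atp5mpl, a small membrane protein of the ATP synthase, read 9.75, 9.81 and 9.91 with MyoD, 9.60, 9.72 and 9.56 with Myf5, 9.38, 9.48 and 9.68 with hrGFP and 8.987, 9.003 and 9.061 with myogenin. The 3 MyoD arrays lay above the other 9, and the 3 myogenin arrays below. Atp5mpl was higher with MyoD than with myogenin by 0.81 ± 0.15 (adjusted p = 0.0497). Over 21 alternatives the difference stayed between 0.76 and 0.90 and the adjusted p in limma ran from 0.0269 to 0.645. The call was lost under 18 of the 21. It was lost on leaving out any array except hrGFP 5, with adjusted p of 0.0621 to 0.278.

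For 37 genes the 3 MyoD arrays lay above the 3 myogenin arrays, where 11.8% of all probe sets did. The next lowest adjusted p were those of Ndufc1 (1.43 ± 0.29, adjusted p = 0.077), Cox5b (0.87 ± 0.19, adjusted p = 0.0875) and Atp5o (1.10 ± 0.24, adjusted p = 0.0936). Uqcrh had the largest difference, 1.47 ± 0.35 (adjusted p = 0.134), with 8.38, 8.90 and 8.93 on the myogenin arrays. Without hrGFP 5, 5 genes were called (Atp5mpl, Atp5o, Cox5b, Ndufc1 and Uqcrh), where 0.692% of all probe sets were. Without MyoD 5 and hrGFP 5, 3 were (Atp5mpl, Atp5o and Cox7b), where 0.593% of all were. By complex the medians were 0.63 for III, 0.60 for V, 0.56 for I, 0.31 for IV and 0.23 for II.

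MyoD against Myf5 gave 54 of 68 genes above 0 (52.2% of all probe sets), with a median of 0.25 against 0.02 over all. None was called, where 0.224% of all probe sets were, and unadjusted p was under 0.05 for 6, all higher with MyoD (2.29% of all probe sets). Without MyoD 5 the median was 0.16, and within the array batch of replicates 3 and 4 it was 0.12. Myf5 against myogenin gave 50 of 68 above 0 (51.8% of all), with a median of 0.26 against 0.01, and none was called, where 0.0354% of all probe sets were. By limma, unadjusted p was under 0.05 for 12 genes that were higher with Myf5 (3.95% of all probe sets) and 1 that was lower (5.23% of all). Without MyoD 5 and hrGFP 5, 3 genes were called as higher with Myf5 than with myogenin, Atp5mpl, Cox7b and Ndufa6, where 0.496% of all probe sets were called.

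Ordered by group mean, MyoD was highest for 50 of the 68 genes (25.3% of all probe sets) and myogenin lowest for 42 (33.7% of all). Myf5 was highest for 6 and hrGFP for 3. The mean over arrays of the genes' median deviation was 0.30 ± 0.20 (SD, n = 3) with MyoD, 0.01 ± 0.05 with Myf5, 0.01 ± 0.22 with hrGFP and -0.23 ± 0.07 with myogenin. The means of the neighbours Myf5 and hrGFP lay within this spread, and the MyoD and hrGFP ranges overlapped. The spread takes no account of the replicate numbers, by which MyoD was above hrGFP 3 times of 3. The correlations do not show that arrays numbered 3 and 4 pair, so this is no separate support. Comparisons with hrGFP share its 3 arrays.

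The 5 genes below the filter were Cox5a, Cox7a1, Cox8a, Ndufa12 and Ndufs4, with signals of 0.618 to 18.6. Of the 68 tested, 7 were below the filter signal on some array: Cox6a2 (above it on 3), Atp5j2 (4), Cox6b2 (5), Ndufc2 (6), Ndufa1, Ndufaf4 and Sdha (10 each). For 9 genes a further probe set was tested, 12 in all, of which 8 had the same sign of difference between MyoD and hrGFP as the one used. The median of these 12 was 0.07, against 0.21 for the probe sets used for the same 9 genes. None of the 12 was called in any comparison.

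Other genes of mitochondria were set beside these by lists. The TCA cycle makes NADH and succinate that feed the chain, and its list here also takes in subunits of pyruvate dehydrogenase, which is not part of the cycle. The 14 tested genes of this list all had a difference above 0 with MyoD, with a median of 0.29, and 0 rose or fell by the test. Pdhb and Dlat, subunits of pyruvate dehydrogenase, differed by 0.64 ± 0.35 and 0.44 ± 0.35, and Sucla2, of succinyl-CoA synthetase, by 0.43 ± 0.31. With myogenin the median of this list was -0.01, with 7 of 14 above 0. Like the respiratory chain genes, the genes of the TCA cycle list were highest on the replicate 5 array of MyoD and of hrGFP, with medians of 0.44 on MyoD 5 and 0.23 on hrGFP 5.

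Of the electron carriers, 6 of 7 were above 0 with MyoD (median 0.13), led by Cyc1, the cytochrome c1 of complex III, at 0.62 ± 0.22 (adjusted p = 0.93). Mitochondrial ribosomal proteins, 59 genes, had a median of 0.07 with MyoD (34 above 0) and -0.23 with myogenin (17 above 0). Cytosolic ribosomal proteins, 30 genes that by their names include 2 kinases, had 0.03 and -0.10 (19 and 13 above 0). The 11 biogenesis regulators had a median of 0.06 with MyoD and -0.21 with myogenin. Among them Gabpa, which with its partner drives respiratory chain promoters, differed by 0.24 ± 0.39 with MyoD, the fatty acid regulator Ppara by 0.33 ± 0.34 and the coactivator Pprc1 by 0.22 ± 0.28.

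In fatty acid oxidation, 8 of 10 genes were above 0 with MyoD (median 0.11), with Cpt1a, which admits fatty acids to mitochondria, at 0.56 ± 0.38 and Hadhb at 0.51 ± 0.24. Mitochondrial carriers and porins had a median of -0.00 over 11 genes, with the phosphate carrier Slc25a3 at -0.91 ± 0.44 and the porin Vdac1 at 0.52 ± 0.38. The assembly factors outside the name rule had 0.02 over 4 genes, import and chaperones 0.02 over 15, and oxygen defence 0.05 over 6. In muscle energy metabolism 1 of 7 genes rose with MyoD, the muscle enolase Eno3, by 1.99 ± 0.37 (adjusted p = 0.0436), a call lost under 17 of 24 alternatives with adjusted p up to 0.522. The median of that list was 0.29 with MyoD, 0.22 with Myf5 and 0.53 with myogenin, so it was not highest with MyoD. Of its 7 genes, 2 are respiratory chain genes, Cox6a2 and Cox8b. Ckm, the muscle creatine kinase, differed by -0.61 ± 0.31 with MyoD. Glycolysis had 10 of 11 above 0 with MyoD and a median of 0.16, with Hk2 at 0.44 ± 0.25. Its medians with Myf5 and myogenin were 0.25 and 0.22. In none of these lists except muscle energy metabolism did a gene pass with MyoD.

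**Figure D5:**
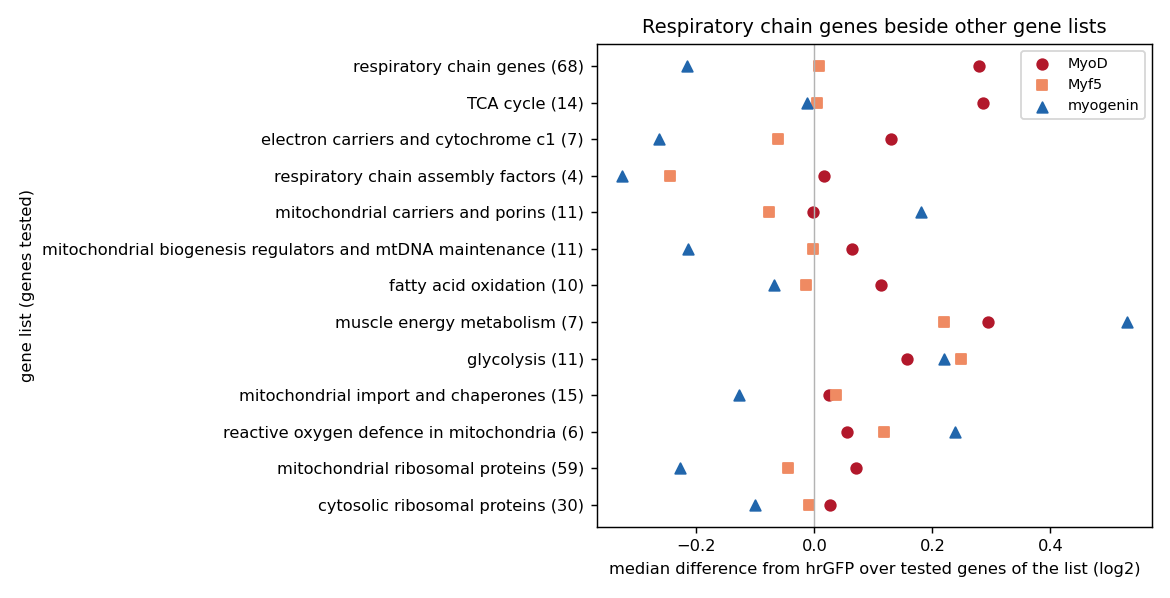
Median difference from hrGFP (log2, horizontal axis) with MyoD, Myf5 and myogenin for the respiratory chain genes and 12 other gene lists (vertical axis, with the number of genes tested). With MyoD the respiratory chain genes lie at 0.28 and the TCA cycle list, which includes pyruvate dehydrogenase, at 0.29. Mitochondrial and cytosolic ribosomal proteins lie at 0.07 and 0.03. With myogenin the respiratory chain genes lie at -0.22 and mitochondrial ribosomal proteins at -0.23.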

How the data were processed

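RNA was measured on 12 mouse MG_U74Av2 arrays, grouped by their titles into 4 groups of 3. The deposited values are MAS5 intensity signals, per the submitters' processing notes, 1 for each probe set on an array. No source used here states the version or scaling of MAS5, or its detection calls. The trimmed mean signal ran from 41.0 to 103 over the arrays, which means that no common level had been set across arrays. The experiment information files hold other information. From these deposited files only the chip lot and hybridization day, to find array batches, and the code in the description were used.

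The 66 array controls were left out. A pseudocount of 6.3 (the 25th percentile) was added, log2 was taken and arrays were quantile normalized in limma 3.58.1 (R 4.3.3). Kept were 8485 of 12422 probe sets, those whose signal exceeded 15.0 (the 40th percentile) on at least 3 of 12 arrays. Group means were fitted in 1 model of all arrays, leaving 8 residual degrees of freedom, with a trend in the variance, and p-values were adjusted by the Benjamini-Hochberg method over all probe sets of each of 6 comparisons. Tested on simulated data of the MyoD and hrGFP comparison over 8340 probe sets, the fit recovered 22.7% of 97 changes of 1 and 78.8% of 99 changes of 2 on the log2 scale, with 5 false calls. The muscle isoforms were compared with their counterparts by exact permutation tests (scipy 1.17.1).

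Genes given with every array were the muscle isoforms and counterparts, genes called, the 2 highest and 2 lowest differences from hrGFP in each group, and the highest mean of each complex; of other lists, up to 3 genes with the largest difference between MyoD and hrGFP and each gene called. Cox5b, Atp5o, Ndufc1 and other genes beyond this rule were chosen after their values were seen. The members, the gene lists, the tests and the alternatives were chosen with earlier results of these data known. All 73 genes were found in RefSeq, under the same symbols. Replicate numbers were taken to pair 2 groups where every correlation of same-numbered arrays was over 0.1. This held for MyoD with hrGFP (0.39 to 0.83) and Myf5 with hrGFP (0.11 to 0.33), and not for MyoD with Myf5 (-0.01 to 0.11), and rests on the data, since the labels give no shared day or culture for a number. Between MyoD and hrGFP, number 3 with number 4 also correlated at 0.48 and 0.37, so this rule does not show that numbers 3 and 4 pair. Myf5 5 with hrGFP 3 gave 0.15, above the 0.12 of number 3 and the 0.11 of number 5. For Myf5 and hrGFP the rule thus does not show pairing either. Number 5 is also an array batch. Normalization, pseudocount, filter, probe set choice, batches and replicates were varied.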

Additional observations from a re-analysis of the deposited data

Results flagged for a closer look

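Atp5mpl, a small membrane protein of the ATP synthase, differed between MyoD and myogenin in its change against hrGFP, by 0.81 on the log2 scale by a test of the difference itself (limma, adjusted p = 0.0497). It was 0.31 ± 0.15 above hrGFP with MyoD and at -0.49 ± 0.15 with myogenin, neither of which passed (adjusted p = 1 and 0.263). The 3 myogenin arrays form an array batch of their own, so batch and group cannot be told apart. The call was lost under 18 of 21 alternatives, with adjusted p in limma of 0.0269 to 0.645 over the 21. Over all probe sets 0.412% were called between MyoD and myogenin.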

How the results depend on the processing

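The median difference of the respiratory chain genes kept its direction under all 26 alternatives for MyoD against hrGFP (0.18 to 0.38) and for MyoD against Myf5 (0.12 to 0.33). It did so under all 23 for myogenin against hrGFP (-0.29 to -0.12), for MyoD against myogenin (0.40 to 0.59) and for Myf5 against myogenin (0.20 to 0.30). For Myf5 against hrGFP it ran from -0.08 to 0.15, with 0.15 within array batch 1. No gene of the set was called against hrGFP with MyoD or Myf5, or between MyoD and Myf5, under any alternative. For MyoD against myogenin, 0 genes were called in place of 1 with no normalization, trimmed mean scaling, no pseudocount (signals under 1 set to 1), a pseudocount of 16, no filter, no variance trend, or only the compared groups in the fit. In the same comparison 3 were called without the replicate 5 arrays of MyoD and hrGFP, and 0 to 5 on leaving out each array in turn. Without those 2 arrays 1 gene was called for myogenin against hrGFP and 3 for Myf5 against myogenin, and 5 for the latter with only the compared groups in the fit, where 1.60% of all probe sets were called. Over all probe sets the calls for MyoD against myogenin, 35 here, ran from 3 to 58, and those for MyoD against hrGFP, also 35, from 12 to 42. The others ran from 1 to 4 for Myf5 against hrGFP (1 here), 0 to 50 for myogenin against hrGFP (11 here), 3 to 28 for MyoD against Myf5 (19 here) and 0 to 136 for Myf5 against myogenin (3 here). With no normalization the median of all probe sets shifted to 0.17 for myogenin against hrGFP and to -0.17 for MyoD against myogenin, where the genes of the set had -0.14 and 0.48.

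Differences near 0 changed sign. For Cox7a2 with Myf5 the value was 0.0303 with no normalization, 0.23 within array batch 1, 0.19 without the replicate 5 arrays of MyoD and hrGFP, and -0.25 to 0.19 on leaving out an array. Cox6a2 with myogenin gave 0.0936 with no normalization and -0.19 to 0.049 on leaving out an array, and Cox6a1 with Myf5 gave 0.0324 within array batch 1. Cox8b with myogenin gave -0.0117 without the replicate 5 arrays and -0.17 to 0.27 on leaving out an array, and Cox6a1 with MyoD -0.0646 to 0.38. For the isoform minus its counterpart, Cox8b with MyoD gave 0.0021 with no normalization, 0.0643 with trimmed mean scaling and 0.0454 with a pseudocount of 16, and -0.37 to 0.23 on leaving out an array. With no pseudocount, Cox6a2 with Myf5 gave -0.0902 and Cox8b with myogenin -0.23. On leaving out an array these ran from -0.26 to 0.31 and from -0.20 to 0.23, Cox6a2 with myogenin from -0.19 to 0.38, and Cox7a1 with Myf5 from -0.11 to 0.39. The cause was not tested for any of these.

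With the replicate block over these 9 arrays, 0 genes of the set were called in each of the 3 comparisons and the medians were 0.28 for MyoD against hrGFP, 0.01 for Myf5 against hrGFP and 0.25 for MyoD against Myf5. The replicate block moved the count over all probe sets to 36, 4 and 17, and changed no call of a gene named here. Near the filter signal, depth of signal limits what the arrays can show for Cox6a2, Cox7a1, Cox8a and Cox6b2.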
